A study of Mus musculus with 6 samples.

Results

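The renewal of sperm-forming cells was examined through 10 genes of the spermatogonial stem cell niche and of stem cell identity, read in the testes of wild-type mice after 16 weeks on an ethanol liquid diet or a control liquid diet. The members were chosen by gene symbol, for their roles as niche ligands, receptors, stem cell factors and a factor of early differentiation, and all 10 were found among the 45777 genes of the deposited table. Ethanol-fed and control-fed mice had 3 libraries each, and every mouse received 10 ml of the liquid diet a day after 5 days of acclimatization on the control diet. RNA was total RNA of whole testis, sequenced after ribosomal RNA was removed, so a level mixes all cells of the organ and the somatic and germ cell sources of a transcript were not separated. The labels give no age, no strain and no genotype beyond wild type. They do not state whether the 3 libraries of a diet are from separate mice, and the p-values therefore cover only the spread between libraries, which could be technical.

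Spermatogonial stem cells lie on the basement membrane of the seminiferous tubule and either renew themselves or enter differentiation. Sertoli cells, with other somatic cells of the tubule wall, secrete GDNF, which binds the co-receptor GFRA1 and signals through the receptor tyrosine kinase RET on undifferentiated spermatogonia to maintain the stem cell pool. Sertoli cells also make KIT ligand, encoded by Kitl, which acts on the receptor KIT of differentiating spermatogonia and supports their survival and division. Within the germ cells ID4, ETV5, ZBTB16 (also called PLZF) and SALL4 act in the stem and progenitor state, and DMRTB1 (also called DMRT6) acts as spermatogonia leave mitotic division for meiosis.

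Of the 10 genes, 3 separated the diets without overlap between libraries, where 18.8% of all tested genes did so, 9.76% with ethanol higher and 9.01% with ethanol lower. Id4 was lower in each ethanol-fed library than in each control library, as was Dmrtb1, and Kitl was higher. Fold changes fitted to the read counts were 0.75 for Id4, 0.87 for Dmrtb1 and 1.25 for Kitl, as ethanol over control. None of the 10 passed the test over all genes: the quasi-likelihood test of edgeR, adjusted by Benjamini-Hochberg, called 0 of 10 members and 0% of the 25073 tested genes. At an unadjusted p under 0.05 by edgeR there were 3 members, against 13.3% of all tested genes, and limma-voom also gave 3, against 13.4%. DESeq2 on the same counts called 2 of the 10 members, Id4 and Kitl, and 1.32% of all tested genes. It gave Gdnf and Ret no adjusted p, and genes without one are counted as not called. The other 7 genes overlapped between the diets.

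The libraries held between 38935654 and 47420249 counted reads. Transcripts that mark the tissue were abundant, with Insl3 of Leydig cells at a mean of 707.6 TPM, Clu of Sertoli cells at 673.7 TPM and the germ cell gene Ddx4 at 371.2 TPM over the 6 libraries. TPM is the authors' read abundance per transcript length, scaled to the same sum in every library. The first principal component of the log2 counts held 35.6% of the variance and placed control library 3 and ethanol library 1 at its ends. On it the controls lay from -25.4 to -3.08 and the ethanol libraries from -1.31 to 28.3. The second component held 24.3% and placed control library 2 and ethanol library 3 at its ends.

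The 10 genes are protein-coding and lie on 10 different chromosomes. The promoters of 3 members are shown: Id4, the member with the smallest p, and Kit and Etv5, whose levels were highest in the same libraries. Each sequence is the 250 bases before an annotated transcript start, from RefSeq on GRCm38.p6 (the mm10 assembly), where 7 of the 10 members had an entry. Capitals mark matches to any of 6 motifs, searched on both strands, whose letters are given with the counts. The windows are chr13:48260866-48261115 on the plus strand for Id4, chr5:75574737-75574986 on the plus strand for Kit and chr16:22439571-22439820 on the minus strand for Etv5.
Id4: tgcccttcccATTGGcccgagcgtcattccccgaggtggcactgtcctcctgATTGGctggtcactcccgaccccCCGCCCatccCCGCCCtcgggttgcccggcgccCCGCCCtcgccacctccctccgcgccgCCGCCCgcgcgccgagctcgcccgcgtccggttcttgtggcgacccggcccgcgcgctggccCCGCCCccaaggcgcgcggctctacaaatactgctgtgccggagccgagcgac
Kit: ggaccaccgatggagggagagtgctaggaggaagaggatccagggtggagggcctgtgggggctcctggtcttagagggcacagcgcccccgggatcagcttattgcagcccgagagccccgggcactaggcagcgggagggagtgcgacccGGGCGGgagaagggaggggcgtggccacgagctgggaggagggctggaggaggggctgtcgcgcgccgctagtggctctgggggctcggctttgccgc
Etv5: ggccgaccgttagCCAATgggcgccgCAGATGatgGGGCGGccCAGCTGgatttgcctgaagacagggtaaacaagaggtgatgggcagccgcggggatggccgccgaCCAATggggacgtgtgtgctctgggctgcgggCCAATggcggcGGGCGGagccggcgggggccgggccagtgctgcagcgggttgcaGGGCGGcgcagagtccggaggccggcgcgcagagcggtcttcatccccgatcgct
The Id4 window had 75.6% G or C and 35 CpG dinucleotides, against medians of 52.4% and 6 over the 32851 windows in the table. It held 5 matches to the GC box (GGGCGG), a motif of 32.7% of all windows. It also held 2 matches to the CCAAT box (the letters of its name), which occurs in 33.8% of windows. The Kit window, with 70.8% G or C and 17 CpG dinucleotides, held 1 GC box match. The Etv5 window, with 71.2% G or C and 27 CpG dinucleotides, held 3 GC box matches and 3 matches to the CCAAT box. It also held 2 matches to the E-box (CANNTG), a motif found in 66.2% of all windows. Kit and Etv5 each have another annotated start, whose window is not shown. That of Etv5 (chr16:22438369-22438618) had 62.0% G or C, 18 CpG dinucleotides, 1 CCAAT box match and no GC box or E-box match. That of Kit (chr5:75574741-75574990) held 1 GC box match. There was no match in the 3 windows shown to the ETS core (CCGGAA), which 12.0% of all windows hold. The same was true of the TATA box (TATAAA), which occurs in 12.4%, and of the cyclic AMP response element (TGACGTCA), which occurs in 1.55%. Other members did hold such matches. The Kitl window held 1 ETS core and 1 TATA box match, a Gdnf window 1 TATA box match and the Gfra1 window 1 ETS core match. Kit and Etv5 were chosen after their values were seen, in place of the 2 ligands first planned. Matches can overlap within a window and were counted each. A match is a string of letters and is not evidence that a factor binds there.

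Levels are compared between genes in TPM, and they spanned a wide range. Dmrtb1 was by far the most abundant member, at a mean of 382.4 TPM over the 6 libraries, which was above 98.5% of the tested genes or level with them. Id4, Kitl, Etv5 and Kit followed at means of 13.6, 11.4, 9.34 and 8.72 TPM. Gfra1 and Zbtb16 were at means of 1.70 and 1.48 TPM. Sall4 was at a mean of 0.849 TPM, Gdnf at 0.538 TPM and Ret at 0.268 TPM, the lowest of the 10. In the control libraries neighbours in this order overlapped for Kitl and Etv5, for Etv5 and Kit, and for Gfra1 and Zbtb16, and the other neighbours did not overlap.

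With ethanol the order of Id4 and Kitl changed. Id4 in TPM ranged from 14.5 to 16.6 in control libraries and Kitl from 8.86 to 11.1, so that all control values of Id4 lay above those of Kitl. In ethanol libraries Id4 ranged from 11.0 to 12.4 TPM and Kitl from 11.1 to 14.0 TPM, and the ranges overlapped. Sall4 and Gdnf, and Gdnf and Ret, also overlapped in ethanol libraries.

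**Figure D1:**
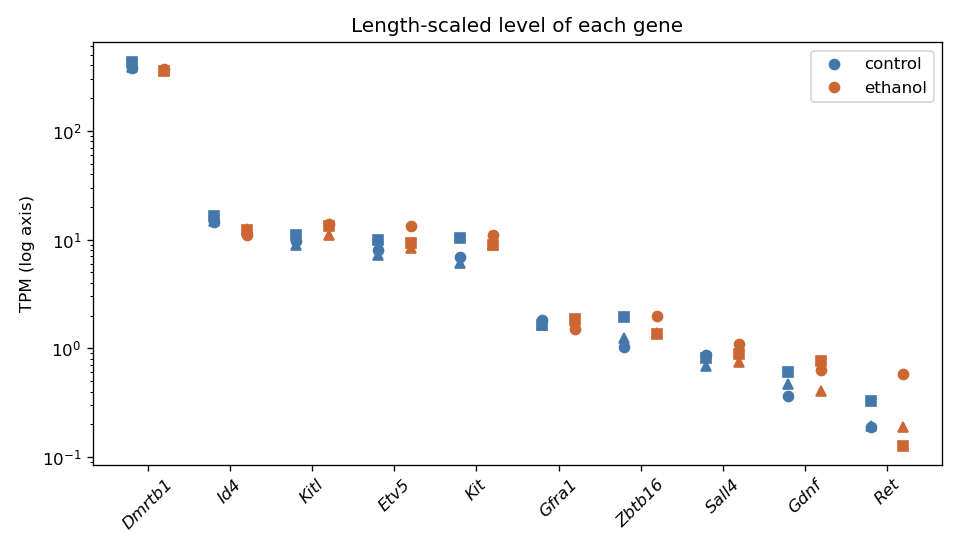
Level of each of the 10 genes in TPM on a log axis, 1 point per library (circle, library 1; square, library 2; triangle, library 3), with control in blue and ethanol in orange. Dmrtb1 stands at 355 to 433 TPM in all 6 libraries, and Ret lies between 0.126 and 0.585 TPM.

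Among the niche ligands, Kitl was higher with ethanol and Gdnf was not separable between the diets. Kitl (Gene ID 17311; chromosome 10, 100015615 to 100100416 on mm10), the ligand of KIT, was at 28.6, 30.0 and 26.6 CPM in control libraries 1 to 3 and at 37.0, 37.1 and 32.6 CPM in ethanol libraries 1 to 3, where CPM is the read count scaled to library size. All 3 ethanol libraries were above all 3 control libraries, and the gap was smallest between control library 2 and ethanol library 3. The means were 28.4 ± 1.71 and 35.5 ± 2.58 CPM (SD, n = 3), a log2 fold change of 0.32 (SE 0.08, 95% interval 0.14 to 0.50; adjusted p = 0.16 by edgeR). DESeq2 called it, with an adjusted p of 0.044, and over the alternatives tried the adjusted p ranged from 0.044 to 0.446 and the log2 fold change from 0.27 to 0.37.

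Kitl is made by Sertoli cells, and their markers lay higher as well. In the list of Sertoli markers 20 of 22 genes had a log2 fold change above 0. Their median was 0.22 (0.15 without ethanol library 3), against 0.0065 over all tested genes. Of the 22 markers, 11 were higher and 1 lower at an unadjusted p under 0.05, where the shares of all tested genes are 7.45% and 5.89%. Their summed level ranged from 1548 to 1747 TPM in control libraries and from 1967 to 2135 TPM in ethanol libraries, and no marker of the list was at 0. The cystatin gene Cst9, a Sertoli marker, stood at a log2 fold change of 0.32 (SE 0.07), about that of Kitl, and Clu, the most abundant marker, one of 0.22 (SE 0.06); neither passed the edgeR test over all genes (adjusted p = 0.145 and 0.193). In bulk tissue more cells of a type and more RNA per cell cannot be told apart, and the part of Sertoli RNA in the Kitl difference was not tested. The count per gene also does not separate the membrane-bound and soluble forms of KIT ligand, which arise from alternative splicing.

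Gdnf (Gene ID 14573; chromosome 15, 7810048 to 7837580), the ligand that maintains stem cells, was counted at 42, 60 and 41 reads in control libraries 1 to 3 and at 46, 60 and 33 reads in ethanol libraries 1 to 3. These counts correspond to 0.898, 1.35 and 0.964 CPM and to 1.16, 1.37 and 0.804 CPM. The highest and the lowest ethanol libraries lay outside the control range on both sides, with library 3 the lowest of all 6. For Gdnf the log2 fold change was 0.06 with a 95% interval of -0.53 to 0.64 (edgeR adjusted p = 0.953), and its sign turned without control library 1 (-0.07), control library 3 (-0.02) or ethanol library 2 (-0.13). A difference in Gdnf was not detectable at this depth within that interval.

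**Figure D2:**
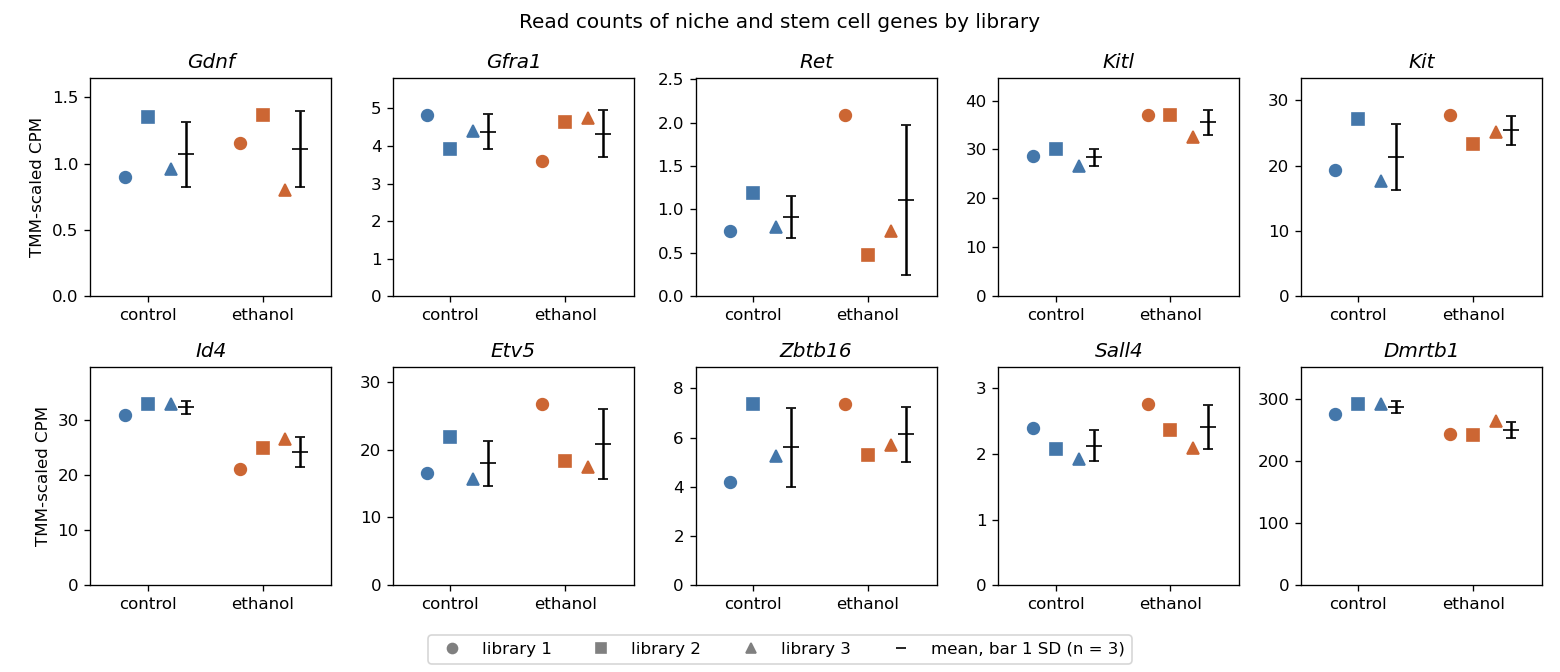
TMM-scaled CPM of the 10 genes in each library, 1 panel per gene with the y axis from 0, control in blue and ethanol in orange; the black mark and bar beside each group are the mean and 1 SD of 3 libraries. For Kitl the ethanol points sit above all control points, and for Id4 and Dmrtb1 below them.

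Among the receptors no gene separated the diets. Gfra1 (Gene ID 14585; chromosome 19, 58235581 to 58455946), the GDNF co-receptor, was at 4.83, 3.92 and 4.40 CPM in control libraries 1 to 3 and at 3.60, 4.64 and 4.75 CPM in ethanol libraries 1 to 3. The lowest value was that of ethanol library 1 and the highest that of control library 1. Its log2 fold change was -0.02 (SE 0.15, 95% interval -0.35 to 0.31; adjusted p = 0.977 by edgeR), with a sign that turned under several settings, and the largest value over the alternatives was 0.10 without ethanol library 1.

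Ret (Gene ID 19713; chromosome 6, 118151748 to 118197744), the signalling receptor for GDNF, was counted at 35, 53 and 34 reads in control libraries 1 to 3. The ethanol libraries 1 to 3 held 83, 21 and 31 reads. Ethanol library 1 was the highest of the 6 and ethanol library 2 the lowest, at 2.09 and 0.48 CPM. The log2 fold change of 0.27 (SE 0.45, 95% interval -0.71 to 1.25; adjusted p = 0.845 by edgeR) became -0.57 without ethanol library 1, so the direction of Ret rested on that library.

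Kit (Gene ID 16590; chromosome 5, 75574987 to 75656722), the receptor of differentiating spermatogonia, was at 19.4, 27.1 and 17.6 CPM in control libraries 1 to 3 and at 27.8, 23.3 and 25.1 CPM in ethanol libraries 1 to 3. Control library 2 lay within the ethanol range, and the other control libraries lay below it. Kit stood at a log2 fold change of 0.25 (SE 0.14, 95% interval -0.06 to 0.56; adjusted p = 0.474 by edgeR). Without control library 2 it was 0.46 (edgeR adjusted p = 0.171), and without control library 3 it was 0.12 (edgeR adjusted p = 0.804). It stayed above 0 under all alternatives tried.

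KIT is also made by Leydig cells and mast cells, and mouse spermatids make a truncated form from an internal promoter that a count per gene does not separate. The 12 Leydig cell markers summed to between 1103 and 1268 TPM in control libraries and between 1112 and 1203 TPM with ethanol, none of them at 0. At an unadjusted p under 0.05, 2 were higher and 5 lower. Their median log2 fold change was -0.04, and it lay between -0.15 without ethanol library 2 and -0.0026 without ethanol library 1. The removal of ethanol library 3 gave -0.15, that of control library 1 gave -0.09 and that of control library 3 gave -0.08. Leydig markers differed among themselves, with Insl3 at a log2 fold change of -0.04 (SE 0.08) and the steroid enzyme gene Cyp17a1 at -0.67 (SE 0.20). The 2 that were higher were the steroid enzyme gene Hsd3b6, at 0.55 (SE 0.14), and Nr5a1, at 0.29 (SE 0.08). For Cyp11a1, another steroid enzyme gene, the control mean of 58.1 ± 14.4 CPM compared with an ethanol mean of 23.5 ± 8.94 CPM (SD over 3 libraries; adjusted p = 0.127 by edgeR). Of the 8 mast cell markers, 3 (the protease genes Mcpt4 and Tpsb2 and the IgE receptor gene Ms4a2) had 0 reads in all libraries. Other protease genes of the list were near 0, with Cpa3 at 0.369 TPM and Tpsab1 at 0.0382 TPM. The summed level of the mast cell list was 14.9 to 17.4 TPM in controls and 18.7 to 20.7 TPM with ethanol, nearly all of it from Hdc at 17.3 TPM, which encodes histidine decarboxylase and is not limited to mast cells.

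Ligand and receptor were also compared within each library, where the ratio does not depend on library scaling. The TPM ratio of Kitl to Kit was 1.41, 1.07 and 1.46 in control libraries 1 to 3 and 1.27, 1.51 and 1.24 in ethanol libraries 1 to 3. The log2 count ratio differed by 0.05 between the diets, and did not separate them (two-sided exact permutation test, n = 3, p = 0.8; 3 against 3 cannot go below 0.1). The TPM ratio of Gdnf to Gfra1 was 0.200, 0.371 and 0.286 in control libraries 1 to 3 and 0.419, 0.412 and 0.226 in ethanol libraries 1 to 3. The difference in log2 count ratio was 0.07 (two-sided exact permutation test, n = 3, p = 1). In TPM it was 0.29, a larger value than in counts, and the cause was not tested. Both ratios changed sign with the library left out.

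Of the stem cell factors, Id4 had the smallest p of the 10 genes. ID4 is an inhibitor of DNA binding that pairs with basic helix-loop-helix factors, and in mouse testis its gene marks spermatogonia with stem cell activity. Which cells of the testis held the Id4 reads was not tested. Id4 (Gene ID 15904; chromosome 13, 48261116 to 48266028) was at 30.9, 32.9 and 32.8 CPM in control libraries 1 to 3 and at 21.1, 24.8 and 26.5 CPM in ethanol libraries 1 to 3. Every ethanol library was below every control library, and ethanol library 1 was the lowest. In CPM the spread was wider with ethanol, at a coefficient of variation of 11.5% against 3.37% in controls. In TPM it was not wider, at 15.3 ± 1.11 TPM in controls and 11.9 ± 0.768 TPM with ethanol (SD, n = 3).

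The log2 fold change of Id4 was -0.41 (SE 0.09, 95% interval -0.61 to -0.22), with an unadjusted p of 0.000705 and an edgeR adjusted p of 0.153, and 112 was its place by p among the 25073 tested genes. DESeq2 called it, with an adjusted p of 0.00878. Over the alternatives tried the log2 fold change ranged from -0.50 to -0.31 and the adjusted p from 0.00878 to 0.424. With offsets for GC content and transcript length the log2 fold change was -0.44 (adjusted p = 0.075 by edgeR). The antisense gene A330033J07Rik overlaps the start of Id4 on the other strand and was counted at 14 to 30 reads per library, against 838 to 1458 for Id4.

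Etv5 (Gene ID 104156; chromosome 16, 22381313 to 22439570) encodes an ETS-family factor that responds to GDNF in stem cells and is also made by Sertoli cells. It was at 16.5, 21.8 and 15.6 CPM in control libraries 1 to 3 and at 26.8, 18.3 and 17.5 CPM in ethanol libraries 1 to 3. Ethanol library 1 was above the rest, and the other ethanol libraries lay within the control range. A log2 fold change of 0.21 (SE 0.17; adjusted p = 0.621 by edgeR) was -0.01 without ethanol library 1.

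Zbtb16 (Gene ID 235320; chromosome 9, 48651797 to 48836225), a zinc finger repressor needed to keep the stem cell pool, was at 4.19, 7.37 and 5.24 CPM in control libraries 1 to 3 and at 7.38, 5.31 and 5.68 CPM in ethanol libraries 1 to 3. Control library 2 and ethanol library 1 were level with each other and above the rest. The log2 fold change was 0.13 (SE 0.20, 95% interval -0.31 to 0.56; adjusted p = 0.83 by edgeR). Its sign turned without control library 1 (-0.05) or ethanol library 1 (-0.03), and it was 0.38 without control library 2.

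Sall4 (Gene ID 99377; chromosome 2, 168748332 to 168767201), a zinc finger factor of undifferentiated and early differentiating spermatogonia, was at 2.39, 2.07 and 1.93 CPM in control libraries 1 to 3 and at 2.77, 2.36 and 2.10 CPM in ethanol libraries 1 to 3. The diets overlapped. Sall4 had a fitted log2 fold change of 0.17 (SE 0.18, 95% interval -0.21 to 0.56; adjusted p = 0.723 by edgeR). The gene Gm14261, which overlaps Sall4 on the other strand, had at most 2 reads in a library.

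Etv5, Zbtb16 and Sall4 thus had fitted values above 0 and overlapped between the diets, unlike Id4. Within libraries the TPM ratio of Id4 to Zbtb16 was 14.3, 8.61 and 12.0 in control libraries 1 to 3 and 5.52, 9.03 and 9.01 in ethanol libraries 1 to 3. The ethanol values lay below control libraries 1 and 3, while control library 2 lay within their range. The log2 count ratio differed by -0.57 between the diets (two-sided exact permutation test, n = 3, p = 0.3), and it remained below 0 with each library left out, between -0.78 and -0.34.

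Dmrtb1 (Gene ID 56296; chromosome 4, 107676288 to 107704011), the early differentiation factor, was at 276, 292 and 292 CPM in control libraries 1 to 3 and at 243, 242 and 264 CPM in ethanol libraries 1 to 3. All ethanol libraries lay below all control libraries. The means were 286.7 ± 9.24 and 249.6 ± 12.2 CPM (SD, n = 3), a log2 fold change of -0.20 (SE 0.06, 95% interval -0.33 to -0.07; adjusted p = 0.2 by edgeR). It ranged from -0.25 to -0.14 over the alternatives, and none called it.

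Markers of spermatocytes, the meiotic cells that follow the stage at which DMRTB1 is known to act, were lower beside it. Of 10 such markers 9 had a log2 fold change below 0, with a median of -0.16, and 5 were lower at an unadjusted p under 0.05, where the share of all tested genes is 5.89%. That number was 3 without ethanol library 1. The median was -0.09 on log2(TPM + 1) and on log2(TPM + 0.1), with 3 lower in each. The most abundant marker, the RNA-binding protein gene Ybx2, stood at a log2 fold change of -0.29 (SE 0.07; adjusted p = 0.156 by edgeR), and the next, the synaptonemal complex gene Sycp3, at -0.03 (SE 0.09; adjusted p = 0.899 by edgeR). Their summed level ranged from 1510 to 1669 TPM in controls and from 1398 to 1476 TPM with ethanol, and no marker was at 0. The part of spermatocyte RNA in the Dmrtb1 difference was not tested.

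**Figure D3:**
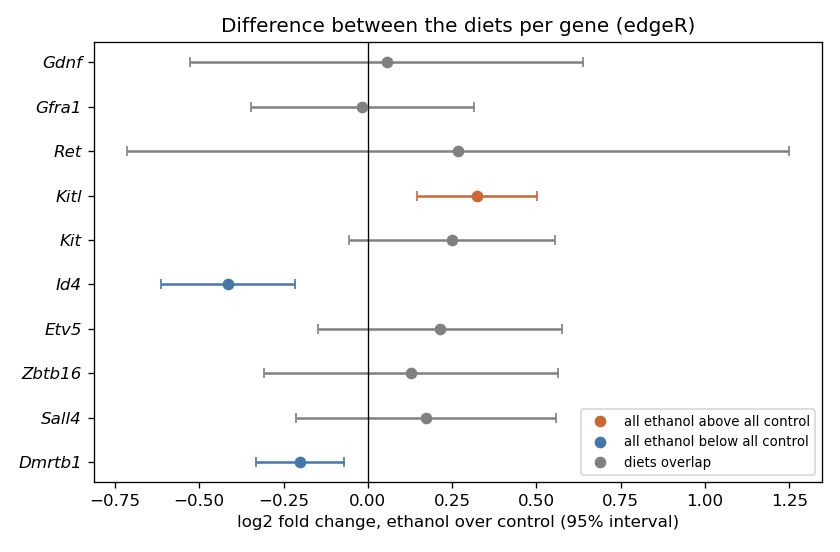
Log2 fold change of ethanol over control for the 10 genes, as edgeR estimates with 95% intervals; orange marks genes with all ethanol libraries above all controls, blue those with all below, grey those that overlap. The intervals of Kitl, Id4 and Dmrtb1 leave out 0 before adjustment, and Ret has the widest interval, -0.71 to 1.25.

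Several members varied within a diet in the same way. For Ret, Kit, Etv5 and Zbtb16, control library 2 was the highest control and ethanol library 1 the highest ethanol library, a combination found in 17.9% of all tested genes. Within the controls the coefficient of variation in CPM was 28.9% for Zbtb16, 26.7% for Ret, 23.5% for Kit and 18.5% for Etv5, against 3.22% for Dmrtb1, 3.37% for Id4 and 6.01% for Kitl. Control library 2 also had the highest summed level of undifferentiated spermatogonia markers among controls, at 66.5 TPM against 56.1 and 58.5 TPM, and ethanol library 1 the highest of all, at 75.2 TPM. In summed TPM the same was true of 10 of the 14 lists described here, Sertoli cells, spermatocytes and macrophages among them. In these, control library 2 was the highest control and ethanol library 1 the highest ethanol library. The order depended on the scale. In the list median of log2 CPM centred per gene, Sertoli markers peaked in control library 1 (-0.072) and ethanol library 3 (0.158) of their diets. Spermatocyte markers peaked in control library 3 (0.113) and ethanol library 2 (0.013). Undifferentiated spermatogonia, the KIT pathway, other niche factors and macrophages kept the order, and the other lists did not. The part of these lists in the member values was not tested. Without both control library 2 and ethanol library 1 the log2 fold changes were 0.39 for Kit (SE 0.10, adjusted p = 0.179 by edgeR), 0.22 for Zbtb16, 0.16 for Etv5 and -0.33 for Ret. In the same fit those of Id4, Kitl and Dmrtb1 were -0.31, 0.34 and -0.17, and 4 of the 10 members had an unadjusted p under 0.05, against 13.9% of the genes tested there. Without control library 2 alone that number was 5, against 14.3%. With any other single library left out it was 3, where 2371 to 3360 of 25544 to 25674 tested genes passed.

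**Figure D4:**
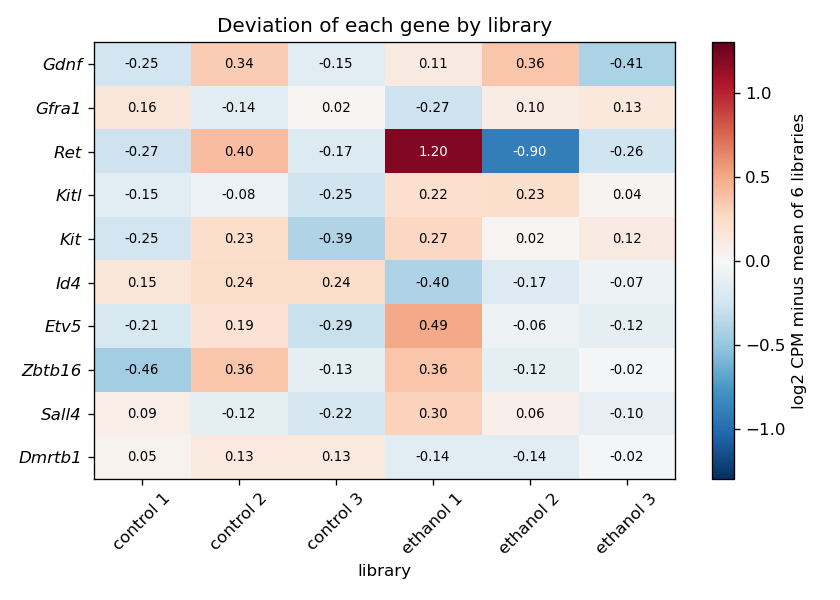
Log2 CPM of each gene minus its mean over the 6 libraries, by library, with red above and blue below the mean. Control 2 and ethanol 1 are red for Ret, Kit, Etv5 and Zbtb16, while Id4 and Dmrtb1 are red in all controls and blue in all ethanol libraries.

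Among genes of the same pathways 0 passed the edgeR test over all genes in any list. The shares of all tested genes at an unadjusted p under 0.05, against which the counts below stand, were 7.45% higher and 5.89% lower. In the GDNF family and RET pathway 20 of 23 genes were tested, with 3 higher and 1 lower at an unadjusted p under 0.05 and a median log2 fold change of 0.08, which was 0.04 with offsets for GC content and transcript length, 0.11 on log2(TPM + 1) and 0.13 on log2(TPM + 0.1). The tyrosine kinase gene Fyn had a mean of 32.0 ± 2.39 CPM in controls and one of 38.8 ± 1.80 CPM with ethanol (SD, n = 3). The log2 fold change was 0.36 (SE 0.12) for Pik3r1, a regulatory subunit of PI3 kinase, 0.23 (SE 0.10) for the adaptor gene Gab1 and -0.28 (SE 0.10) for Ncam1, a GDNF receptor outside the RET route.

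Of 15 genes that respond to GDNF in stem spermatogonia 11 were tested, with 2 higher, 1 lower and a median of 0.22. The median was 0.09 without control library 3, 0.08 without ethanol library 1, 0.13 without ethanol library 2 and 0.0056 without ethanol library 3, and it was 0.05 on log2(TPM + 1) and 0.02 without both control library 2 and ethanol library 1. The chemokine receptor gene Cxcr4 was at 2.77 ± 0.234 and 3.58 ± 0.408 CPM, and the cyclin gene Ccnd2 at 5.05 ± 0.310 and 6.07 ± 0.224 CPM. Eomes, a T-box factor gene of a subset of stem spermatogonia, was at 0.334 ± 0.0809 and 0.150 ± 0.0880 CPM. The last 3 genes did not overlap between the diets.

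Among the undifferentiated spermatogonia markers 15 of 20 were tested, with 3 higher, 1 lower and a median of 0.16, which was 0.08 without ethanol library 1 and 0.27 without control library 2. The adhesion gene Mcam was at 11.5 ± 0.0249 and 15.4 ± 1.03 CPM, the receptor gene Adgra3 (also called Gpr125) at 28.1 ± 1.23 and 34.8 ± 1.81 CPM and the integrin gene Itga6 at 19.6 ± 0.683 and 23.2 ± 2.18 CPM. These 3 genes are also expressed outside the germ line. The cadherin gene Cdh1 was at 0.791 ± 0.315 and 0.326 ± 0.146 CPM. Lin28a and Pou5f1 had log2 fold changes of 0.03 (SE 0.20) and -0.21 (SE 0.17). The stem cell genes Pax7 and Utf1 were not tested, at a mean of 0.00930 and 0.0429 TPM.

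Among the differentiating spermatogonia markers 15 of 16 were tested, with 0 higher and 1 lower and a median of 0.10. That median was 0.02 without control library 1, 0.04 without ethanol library 2 and 0.05 without ethanol library 3. The member that was lower was Ddx4, an RNA helicase gene of all germ cells, at 605.4 ± 17.2 and 554.1 ± 14.9 CPM. Genes of the entry into differentiation overlapped between the diets, with log2 fold changes of 0.13 (SE 0.24) for Stra8, 0.13 (SE 0.15) for Sohlh1, 0.14 (SE 0.12) for Sohlh2 and 0.10 (SE 0.10) for Dmrt1.

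In the KIT pathway all 19 genes were tested, with 5 higher, 2 lower and a median of 0.04 that turned to -0.01 with offsets for GC content and transcript length, and likewise to -0.0087 without control library 3. It was 0.07 without control library 2 and with total counts alone, and 0.13 and 0.14 on log2(TPM + 1) and log2(TPM + 0.1). Stat3, a transcription factor gene downstream of many cytokine receptors, was at 27.5 ± 1.23 and 35.0 ± 1.28 CPM. The adaptor gene Grb7 stood at a log2 fold change of 0.66 (SE 0.19), the phosphatase gene Ptpn11 at 0.22 (SE 0.08) and Pik3r2, another PI3 kinase subunit, at -0.26 (SE 0.09).

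Other niche factors and their receptors had 24 of 26 genes tested, with 7 higher, 1 lower and a median of 0.16, which was 0.24 without control library 2. Bmpr1a, a receptor for bone morphogenetic proteins, was at 33.8 ± 1.04 and 41.9 ± 1.82 CPM, and Vegfa at 2.40 ± 0.312 and 3.53 ± 0.370 CPM. Lifr, the receptor gene of leukemia inhibitory factor, stood at a log2 fold change of 0.41 (SE 0.12), and Inhba, the activin subunit gene, at 0.89 (SE 0.27). The 10 genes of the ID family and its partners were all tested, with 0 higher and 0 lower and a median of 0.17, which was 0.10 without control library 1. The paralogs of Id4 overlapped between the diets, with log2 fold changes of -0.01 (SE 0.22) for Id1, -0.14 (SE 0.15) for Id2 and 0.17 (SE 0.19) for Id3. The smallest p in that list was that of Rbpj, which encodes the DNA-binding factor of Notch signalling, at 0.18 (SE 0.09; adjusted p = 0.411 by edgeR).

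Peritubular myoid cells, another source of GDNF, had 8 of 9 markers above 0 with a median of 0.09, which was 0.04 without control library 2 or without ethanol library 3. Their summed level was 380.8 to 435.0 TPM in controls and 424.0 to 448.2 TPM with ethanol, and the most abundant, the actin gene Actg2 and the myosin light chain gene Myl9, had log2 fold changes of -0.01 (SE 0.06) and 0.06 (SE 0.08). Macrophage markers summed to 56.1 to 64.8 TPM and 62.6 to 72.7 TPM. Their median of 0.17 was 0.10 without control library 1 and 0.11 without ethanol library 1, with the mannose receptor gene Mrc1 at 0.30 (SE 0.07) and the complement gene C1qb at 0.18 (SE 0.12). Endothelial markers summed to 15.1 to 17.3 TPM and 15.0 to 20.5 TPM. Their median of 0.01 had no stable direction, from -0.07 without ethanol library 1 to 0.14 without ethanol library 3. Vwf was at 0.02 (SE 0.11) and the cadherin gene Cdh5 at 0.44 (SE 0.15). At the same unadjusted threshold 1 endothelial marker was higher, Cdh5, and 1 lower, Emcn at -0.52 (SE 0.23). Macrophage markers were also split at that threshold, with 1 higher, Mrc1, and 1 lower, the complement gene C1qa at -0.44 (SE 0.12). No marker of these 3 cell types was at 0.

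**Figure D5:**
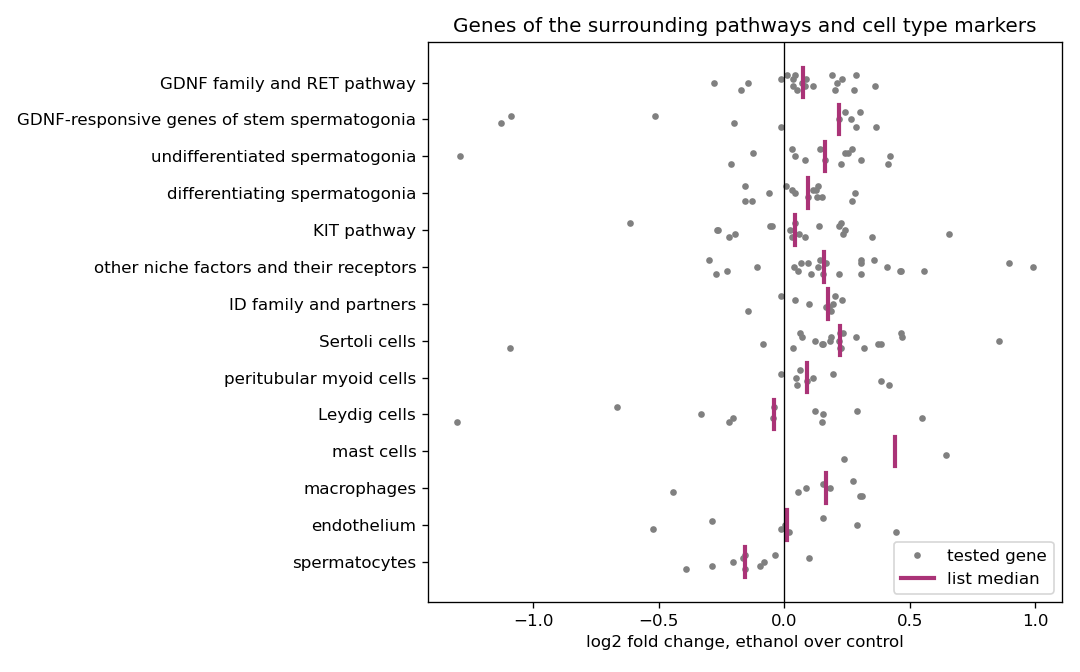
Log2 fold change of ethanol over control for each tested gene of the surrounding pathways and of the cell type markers (grey points), with the list median as a bar. Medians run from -0.16 for spermatocytes to 0.22 for Sertoli cells, and to 0.44 for mast cells, of which 2 genes were tested (0.29 without ethanol library 2).

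The genes most like Id4 and Kitl over the 6 libraries were found after each gene was centred on its own mean. The measure was the root mean square difference in log2 CPM. It was taken over 11055 genes whose mean reached 5 CPM, with predicted genes (Gm number, Rik or LOC symbols) left out. The nearest to Id4 were Clasrp, Ptp4a3, Mfsd12, Ubald2 and Dact3, at differences of 0.0519 to 0.0699, where Id4 itself deviated from its mean by 0.234. Clasrp was at 23.2 and 18.0 CPM in the means of the control and ethanol libraries, and Ptp4a3 at 34.1 and 26.4 CPM. The nearest to Kitl were Dcbld2, Pard3b, Slc7a2, Traf6 and Vti1a, at differences of 0.0222 to 0.0354 against 0.180 for Kitl itself. Dcbld2 was at 28.8 and 36.0 CPM and Pard3b at 17.3 and 21.1 CPM. The 5 genes nearest to Id4 had transcripts of 57.5% to 66.4% G or C, above the median of 49% over tested genes, while the Id4 transcript had 42.6%. Those nearest to Kitl had 43.9% to 49.5%, and Kitl 39.3%.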

How the data were processed

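RNA-seq tables of mouse testis were used, with 6 libraries, 3 of each diet. The kit was a stranded one for total RNA, with removal of ribosomal RNA, per the labels' protocols. HISAT2 aligned the reads and mm10 was the genome, per the submitters' processing notes. The HISAT2 version, the tool that counted reads, whether it used strand, and the gene annotation are not stated there, so values of genes with an antisense partner are uncertain. The deposited read counts are whole numbers per gene with no normalization, as the Read_Count headers and the values show. The authors also deposited FPKM and TPM per gene, per the file headers. TPM was used for levels between genes, and FPKM entered no test. The table had 0 sample columns outside these libraries.

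Counts were tested by edgeR 4.0.16 (R 4.3.3): filterByExpr, TMM scaling, a quasi-likelihood F-test of the diet alone, and p-values adjusted by Benjamini-Hochberg over 25073 genes at a threshold of 0.05. The biological coefficient of variation was 0.102. Standard errors are the fold change divided by the root of F. Errors beside means are 1 SD. Every pair of libraries differed by more than sampling noise (chi-square per gene 7.68 or more, against 1 under sampling noise alone). Coordinates are from an NCBI table of mm10. GC content came from GENCODE M21 transcripts, found for 20604 tested genes. Alternatives were other scalings and filters, DESeq2 1.42.0, limma 3.58.1 (voom, and log2(TPM + 1) or log2(TPM + 0.1)), a block for the replicate number, and fits without each library. Offsets for GC content and length and the removal of 2 libraries were added after the data were seen. The procedure was tested on simulated data. Members, lists and the naming rule for genes were chosen with earlier results of these data known. That rule named, in a pathway list, members with p under 0.05, at most 4 by smallest p, or else the 1 of smallest p, and in a cell type list the 2 of highest TPM. Genes named outside it, after their values were seen, are Lin28a, Pou5f1, Pax7, Utf1, Stra8, Sohlh1, Sohlh2, Dmrt1, Id1, Id2, Id3, Mcpt4, Tpsb2, Tpsab1, Ms4a2, Cyp11a1, Hsd3b6, Nr5a1, C1qa and Emcn.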

Additional observations from a re-analysis of the deposited data

How the results depend on the processing

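Counts of genes past the threshold depended on the tool: 0 with edgeR (3343 at an unadjusted p under 0.05), 330 with DESeq2, of which 203 were higher and 127 lower, 5 with limma-voom, 2 with a filter of 1 CPM in 3 libraries, and 4 with offsets for GC content and transcript length. With 1 library left out in turn there were 0 to 3. Of the members, DESeq2 called 2 and the other fits 0. Ret was not tested with the 1 CPM filter, and DESeq2 gave Gdnf and Ret no adjusted p. Id4, Kitl, Kit, Sall4 and Dmrtb1 kept their direction under all alternatives. The log2 fold change of Gfra1 turned to 0.0085 with total counts alone, 0.0076 on log2(TPM + 1), 0.010 on log2(TPM + 0.1) and 0.025 without control library 2 and ethanol library 1, which also turned Ret to -0.33 and the Kitl to Kit log2 ratio to -0.056. With 1 library left out the log2 fold changes ranged from -0.13 to 0.26 for Gdnf, -0.094 to 0.099 for Gfra1, -0.57 to 0.63 for Ret, -0.0063 to 0.37 for Etv5 and -0.053 to 0.38 for Zbtb16, and the log2 ratios from -0.092 to 0.13 for Kitl to Kit and -0.12 to 0.35 for Gdnf to Gfra1. The causes were not tested. Gdnf and Ret, with 21 to 83 reads per library, carry the largest counting error of the members.

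The labels state no link between same-numbered libraries beyond the number. Their deviations correlated at -0.116, 0.014 and 0.236, and 2 of 6 libraries correlated best with their own number. Whether such libraries were paired cannot be told from these 3 values. With the replicate number as a block, 15 genes passed, 5 higher and 10 lower, and 0 of the 10 members; for the ratios the block leaves the difference as it is by construction, and the exact paired permutation p was 1 for Kitl to Kit, 1 for Gdnf to Gfra1 and 0.5 for Id4 to Zbtb16 (n = 3 pairs, which cannot go below 0.25).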

Other observations

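Dmrtb1, described as a factor of late spermatogonia, was at a mean of 382.4 TPM, near the 371.2 TPM of the germ cell helicase gene Ddx4 and far above the spermatogonial genes Stra8 (6.35 TPM), Sohlh1 (6.77 TPM) and Kit (8.72 TPM). The gene with the highest mean among the spermatocyte markers, Ybx2, was at 515.1 TPM. Which cells held the Dmrtb1 reads was not tested.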
